A study of Mus musculus with 2 samples.

Results

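Connexins are the proteins that build gap junctions, and 5 connexin genes of the mouse glomerulus are described here by cell type. Gja3, Gja5, Gja4, Gja1 and Gjc1 encode Cx46, Cx40, Cx37, Cx43 and Cx45. They were taken as the rows of the deposited count tables that carry these symbols, and each symbol was found once, which makes 5 of the 31058 listed features and 5 of the 20 connexin genes among them. The genes were selected on their levels by cell type in these same tables, so their levels by class are a description without a test.

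Single cells from dissociated glomeruli were profiled with droplet-based 10x Genomics 3′ chemistry, in 1 library whose label says female and 1 whose label says male. Both labels describe a healthy C57Bl/6 animal of genotype Pax2.rtTA;TetO.Cre;R26.Confetti. In it a Pax2 promoter drives the activator rtTA, which with doxycycline switches on Cre from the TetO promoter. Cre then recombines a multicolour Confetti reporter. Doxycycline induction took place when the animals were 19 days old, and tissue was taken when they were 30 days old. No group without the transgenes or without doxycycline was among the 2 libraries, each label names 1 mouse, and with 1 library per label no difference between them can be tested.

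The female-labelled library held 5233 barcodes and 67648465 UMIs (counted RNA molecules), and the male-labelled library held 4974 barcodes and 57841860 UMIs. Before filtering, 10 barcodes occurred in both libraries. After filtering, 4909 and 4442 cells remained, with medians of 10672 and 9616 UMIs per cell. The sex-linked transcripts went against the labels. Xist stood at 0.682 CPM (UMIs per 1000000 UMIs) in the female-labelled library and 1593 CPM in the male-labelled library, and the sum of 4 Y-linked genes stood at 214 and 0.0206 CPM, so the libraries are named by their labels throughout and no direction is read as a sex difference. Cells were clustered without connexin genes and each class was named from marker genes of its type. Podocyte-like cells numbered 3698 and 3210, mesangial-like cells 209 and 167, glomerular endothelial-like cells 113 and 90, arterial endothelial-like cells 65 and 65, parietal epithelial-like cells 56 and 39, and smooth muscle or renin-like cells 37 and 57. A further 672 and 680 cells lay in 11 clusters that were led by genes of another cell type or of the cell cycle and stayed unnamed, and the immune and tubular classes were too small to describe. No marker of a named class stood at 0 in its own class. The arterial name rests unevenly on its markers. The S100a4- and Cd93-led sub-clusters of 69 and 28 cells, out of 130 in the class, held the listed arterial markers Sox17 (777 and 622 CPM) and Fbln5 (679.6 and 615 CPM) but little Hey1 (4.24 and 6.91 CPM) or Dll4 (8.48 and 20.7 CPM), and the Kdr- and Emcn-led glomerular endothelial-like sub-cluster held Hey1 at 32.5 CPM and Dll4 at 85.8 CPM. The doublet caller marked 3 and 1 cells, too few to be of use, so doublets remain in the classes.

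A gap junction channel forms where a hexamer of connexins in one cell docks with a hexamer in its neighbour, and ions, cyclic nucleotides and other small solutes pass through it. In the kidney, gap junctions join endothelium, smooth muscle, renin-secreting cells and mesangium along the afferent arteriole and into the glomerular stalk, and Cx40 of renin-secreting cells takes part in the pressure control of renin release. Cx46 is best known from the lens, where it couples the fibre cells.

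The members lie apart in the genome, on GRCm38 as annotated by GENCODE M21. Gja3 spans chr14:57034460-57058100 on the minus strand, Gja5 spans chr3:96904693-97077416 on the plus strand, Gja4 spans chr4:127311421-127314039 on the minus strand, Gja1 spans chr10:56377330-56402513 on the plus strand and Gjc1 spans chr11:102799579-102819700 on the minus strand. The start regions of 3 members are shown because the results turn on Gja3 in podocytes and on Gja5 and Gja4, which were high together in one set of arterial cells. Of the 5 members 4 had a RefSeq window, and none was held for Gjc1. Each is the RefSeq window (GRCm38.p6) of 250 bases before to 50 bases after a gene start, printed along the gene's strand, with capitals marking a match on either strand to one of the motifs searched. These were the GC box, spelled GGGCGG, and the box for the basal factor TBP, spelled TATAAA, together with 3 others described after the sequences.
Gja3, chr14:57057981-57058280, minus strand: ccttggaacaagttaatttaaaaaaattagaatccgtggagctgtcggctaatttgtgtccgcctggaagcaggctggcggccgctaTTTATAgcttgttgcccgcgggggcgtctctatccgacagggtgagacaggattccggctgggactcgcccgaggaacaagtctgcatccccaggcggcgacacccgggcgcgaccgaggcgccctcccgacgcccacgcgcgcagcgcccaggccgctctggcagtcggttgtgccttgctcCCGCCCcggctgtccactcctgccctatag
Gja5, chr3:97032152-97032451, plus strand: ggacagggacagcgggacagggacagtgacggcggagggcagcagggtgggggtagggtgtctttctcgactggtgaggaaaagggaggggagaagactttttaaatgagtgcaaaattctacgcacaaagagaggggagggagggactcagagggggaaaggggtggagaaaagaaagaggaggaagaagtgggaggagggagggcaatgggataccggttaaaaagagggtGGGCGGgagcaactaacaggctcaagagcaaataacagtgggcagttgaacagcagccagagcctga
Gja4, chr4:127313990-127314289, minus strand: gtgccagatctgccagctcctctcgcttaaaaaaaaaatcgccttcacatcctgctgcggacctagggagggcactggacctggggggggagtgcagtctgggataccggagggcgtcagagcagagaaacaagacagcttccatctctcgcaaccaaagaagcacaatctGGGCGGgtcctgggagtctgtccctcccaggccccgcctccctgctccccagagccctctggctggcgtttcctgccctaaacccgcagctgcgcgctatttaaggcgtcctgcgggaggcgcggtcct

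All 3 windows held 1 GC box, which 35.7% of the 32851 promoter windows of this length also held. The Gja3 window also held TATAAA on its other strand, 163 bases before the start, a motif found in 13.6% of all windows. The Gja1 window held neither, and carried 1 AP-1 site (TGANTCA, either strand) 19 bases before the start, against 7.81% of all windows. CCAAT and TGGGAA (the RBPJ core), searched on both strands and present in 37.4% and 25.6% of all windows, were in none of the printed windows. GC made up 63.3% of the Gja3 window, 62.0% of the Gja4 window and 55.7% of the Gja5 window, beside a median of 52.7% over all windows. The other RefSeq start of Gja3, whose window was 76.0% GC, held none of the motifs. Such letter matches are a description of the windows and carry no information on binding.

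**Figure D1:**
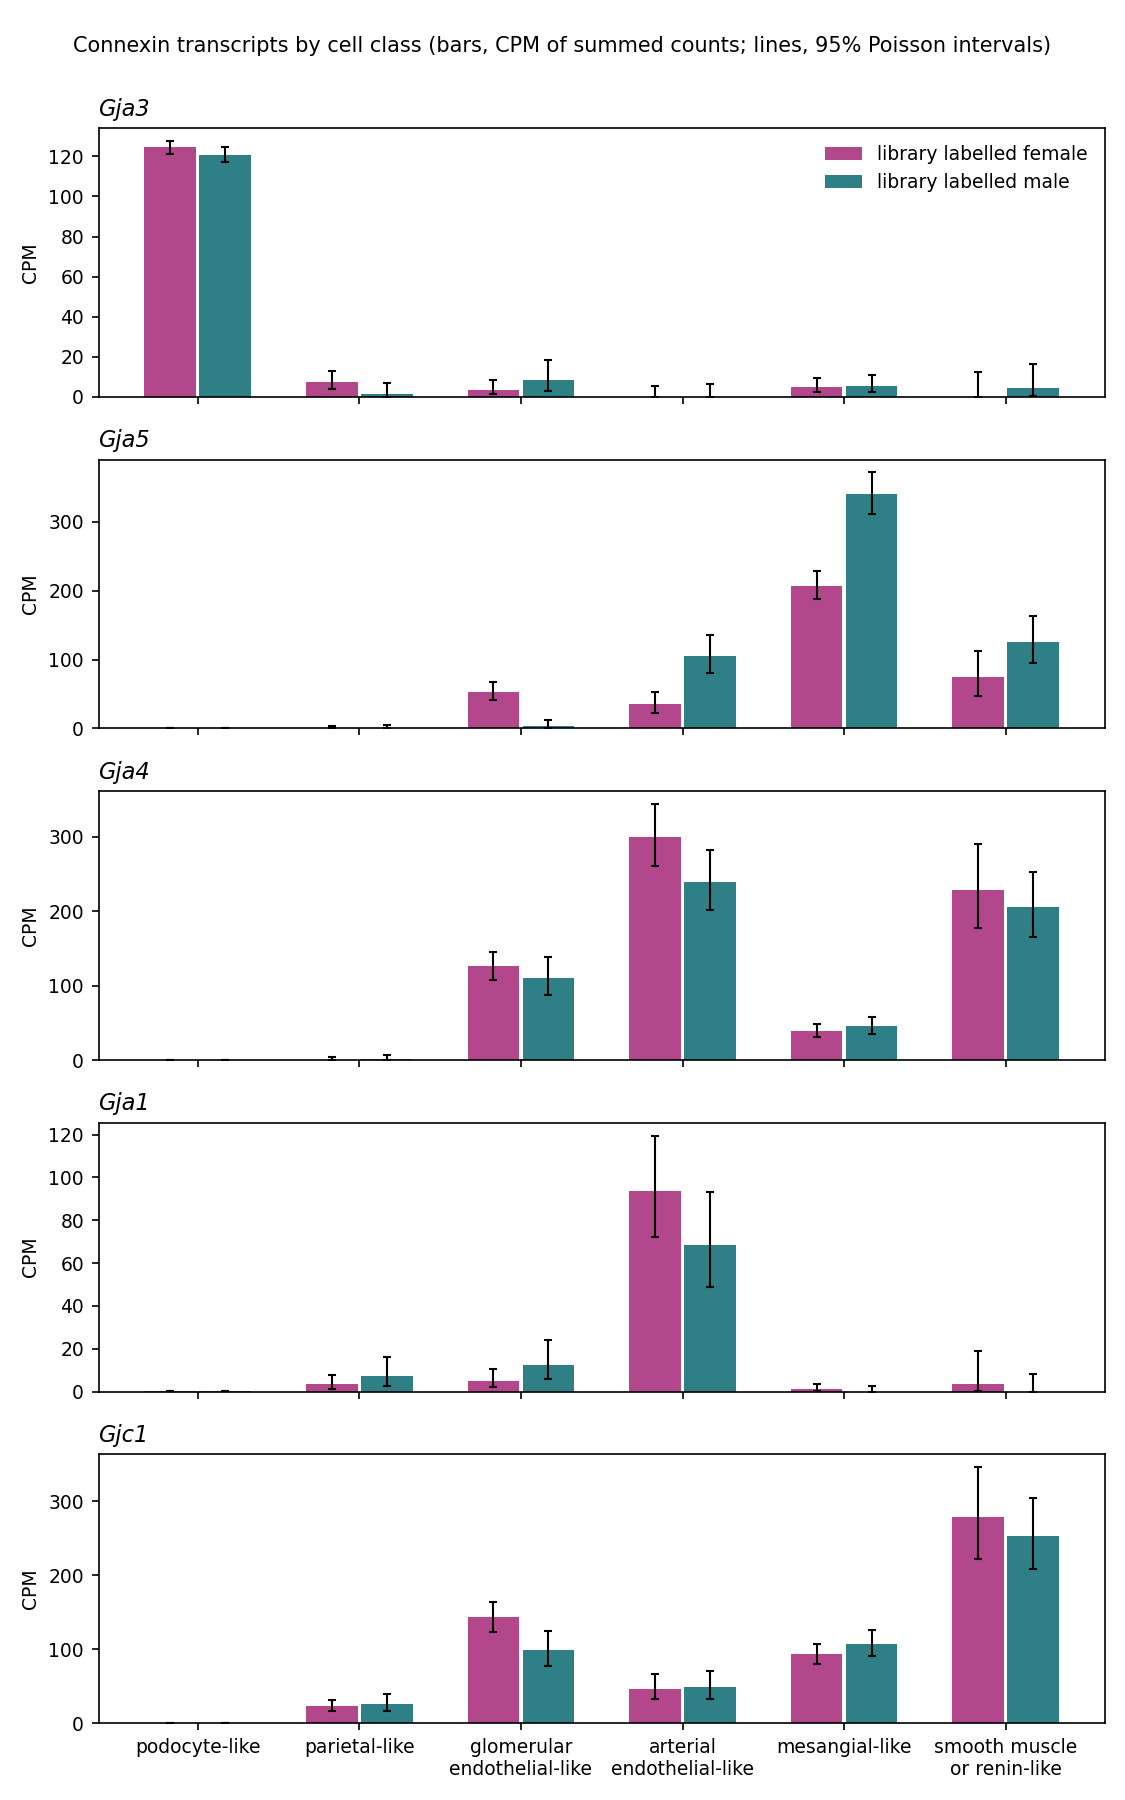
Level of each member (CPM of the summed counts, bars starting at 0, 1 panel per gene) in the 6 classes of the female-labelled library (left bar) and the male-labelled library (right bar), with 95% Poisson intervals as lines. Of these classes, Gja3 rises above 8.39 CPM in podocyte-like cells alone, and Gja1 above 12.6 CPM in arterial endothelial-like cells alone. Gja5, Gja4 and Gjc1 are spread over the vascular and mesangial classes. Gjc1 also stands at 23.2 and 26.1 CPM in parietal epithelial-like cells.

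Gja3, the lens fibre connexin, was highest in podocyte-like cells. It stood at 125 CPM (95% Poisson interval 121 to 128) in podocyte-like cells of the female-labelled library and at 121 CPM (117 to 124) in those of the male-labelled library, from 5831 and 4347 UMIs. At least 1 Gja3 UMI was seen in 70.1% and 67.7% of podocyte-like cells (median depth 11012.5 and 10065.5 UMIs), and in 0 of 65 arterial endothelial-like cells of either library, at medians of 8941 and 7069 UMIs. With every cell thinned to 3000 UMIs the shares of podocyte-like cells were 30.1% and 31.1%. Intervals in the text cover counting error only. Those of levels and ratios treat UMIs as independent and leave out the added spread among cells. In the leading class of each member, UMIs per cell had a variance over the mean above the Poisson value of 1. It ran from 1.44 (Gja3, male-labelled library) to 10.5 (Gja4, female-labelled library).

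The other 5 classes held Gja3 at 8.39 CPM or less. The next class by the mean of both libraries was glomerular endothelial-like, at 3.61 and 8.39 CPM. Podocyte-like cells exceeded it 34.5-fold (95% interval 14.8 to 106) in the female-labelled library and 14.4-fold (6.61 to 39.3) in the male-labelled library. In the female-labelled library alone, parietal epithelial-like cells (7.32 CPM) and mesangial-like cells (5.01 CPM) stood above the glomerular endothelial-like ones. These glomerular endothelial-like counts were 5 UMIs in 2 cells and 6 UMIs in 1 cell, and the interval of every ratio between neighbouring classes below podocytes included 1 in both libraries, or both stood at 0. Podocyte-like cells contributed 88.1% and 85.6% of all Gja3 UMIs over the kept cells, of which they made up 75.3% and 72.3%.

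Low Gja3 in other classes can be set beside podocyte RNA in the same cells, read from Nphs1, which encodes the slit diaphragm protein nephrin. Podocyte-like cells carried 83.5 and 84.1 Gja3 UMIs per 1000 Nphs1 UMIs. At that ratio the Nphs1 UMIs of parietal epithelial-like cells correspond to 13.0 and 2.61 Gja3 UMIs, and 12 and 1 were counted. Those of glomerular endothelial-like cells correspond to 3.26 and 2.94, and 5 and 6 were counted. Those of mesangial-like cells, 12 in each library, correspond to 1.002 and 1.01, and 10 and 8 were counted. Those of smooth muscle or renin-like cells correspond to 0.167 and 0.336, and 0 and 2 were counted, and those of arterial endothelial-like cells to 0.919 and 0.925, and 0 and 0 were counted. The part of podocyte RNA in these counts was not tested. The 10 mesangial UMIs of the female-labelled library came from 7 of 209 cells and the 8 of the male-labelled library from 8 of 167 cells, at a level of 5.01 and 5.52 CPM.

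Within the podocyte-like class Gja3 varied less than across classes. Of the 9 podocyte-like clusters, 8 lay between 95.0 and 145 CPM over both libraries. The highest was the cluster led by AY036118, R3hdml and Fxyd6, at 144 and 146 CPM in the female- and male-labelled libraries. The large cluster led by the early-response genes Tnfaip3, Ifrd1 and Atf3 stood at 98.9 CPM in the female-labelled library and 81.5 CPM in the male-labelled library, from 648 and 187 cells. The cluster led by Mylk3 and Myl7 stood at 101 and 112 CPM. The ratio of the female-labelled library over the male-labelled library was 1.03 (0.991 to 1.07) over the class, and between 0.903 and 1.21 in the 7 clusters of over 500 cells, 4 of which had an interval above 1. The unnamed cluster of 996 cells led by haemoglobin genes, with Nphs1 at 1674 CPM, stood at 136 CPM of Gja3.

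One first cluster held parietal cells together with podocyte-like cells marked by Cst12, and all 7 of its sub-clusters are given here. Gja3 was at 95.0 CPM in the Cst12- and Dkk3-led podocyte-like one (92 cells, Nphs1 at 1326 CPM), at 62.1 CPM in an unnamed one of 65 cells (Nphs1 at 1067 CPM) and at 45.1 CPM in an unnamed one of 42 cells (Nphs1 at 886 CPM). The podocyte-like one led by Lsp1 and Cst12 was at 18.8 CPM (42 cells, Nphs1 at 483 CPM) and the parietal-like one led by Gpx3 and Krt8 at 8.95 CPM (29 cells, Nphs1 at 129 CPM). The unnamed one led by Pcp4 and Tagln was at 1.91 CPM (59 cells, Nphs1 at 53.6 CPM), and the parietal-like one led by Akap12 and Msmp at 3.61 CPM (66 cells, Nphs1 at 51.7 CPM). Gja3 and Nphs1 were lower together except between these last sub-clusters, which held 1 and 6 Gja3 UMIs, while Akap12, a parietal marker, stood at 71.3, 159, 605, 867, 2444, 1862 and 2872 CPM in the same order. The unnamed clusters that combined podocyte RNA with that of mesangial, endothelial, tubular or renin cells held 59.6 to 89.0 CPM, and their Nphs1 levels, 878 to 1077 CPM, were also intermediate.

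**Figure D2:**
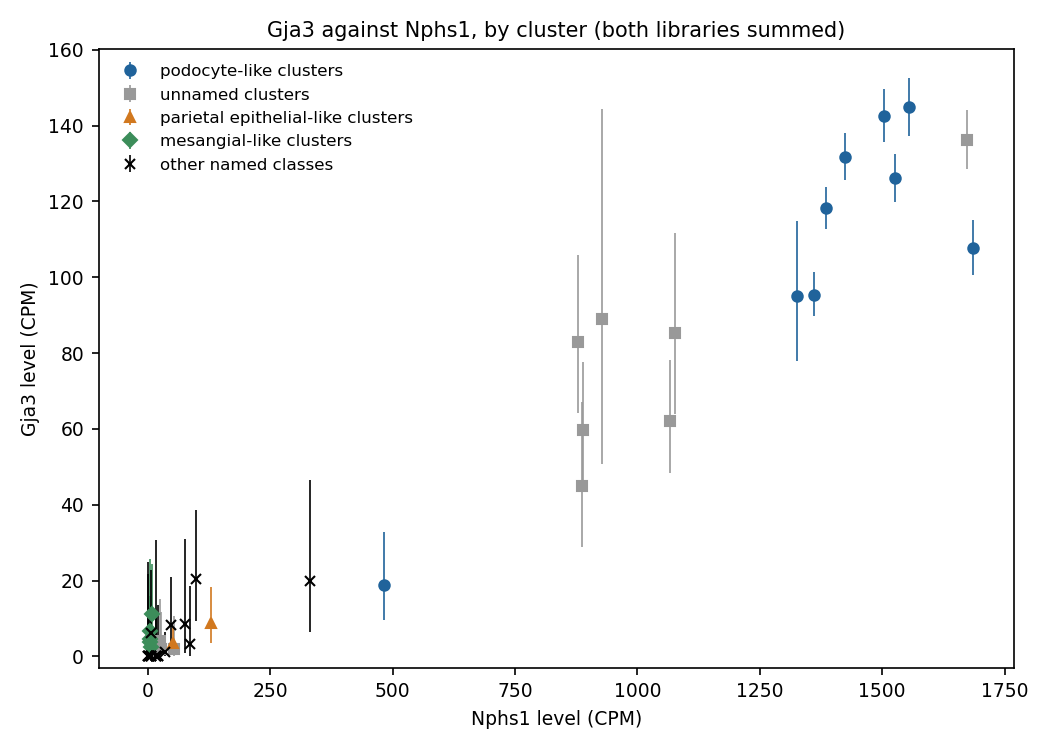
Gja3 level (vertical axis, CPM) against the Nphs1 level (horizontal axis, CPM) in each cluster of 10 or more cells, both libraries summed, with 95% Poisson intervals as vertical lines. Podocyte-like clusters sit at the upper right, except the Lsp1- and Cst12-led one at 18.8 CPM, mixed unnamed clusters lie in the middle, and the mesangial-like and parietal epithelial-like clusters lie at or below 11.2 CPM.

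Gja5 (Cx40), the connexin of arteriolar endothelium and renin-secreting cells, was highest in mesangial-like cells among the 6 whole classes, while 1 arterial and 1 renin sub-cluster stood at 202 and 155 CPM in the female-labelled library and 392 and 278 CPM in the male-labelled library. In mesangial-like cells it stood at 208 CPM (188 to 228) in the female-labelled library and 341 CPM (311 to 372) in the male-labelled library, from 414 and 494 UMIs, and 78.5% and 85.6% of mesangial-like cells had at least 1 UMI. Smooth muscle or renin-like cells followed at 74.0 (46.4 to 112) and 125 (94.4 to 163) CPM, and arterial endothelial-like cells at 35.1 (22.5 to 52.2) and 106 (81.1 to 136) CPM. Glomerular endothelial-like cells held 53.4 (41.9 to 67.1) and 4.20 (0.865 to 12.3) CPM. Of the 74 UMIs behind the female-labelled value, 69 lay among 5 cells with 2 or more Pdgfrb UMIs. Podocyte-like cells held 0.107 and 0.111 CPM, with a UMI in 0.135% and 0.125% of cells, and parietal epithelial-like cells held 1 UMI and 0 UMIs, where 3 UMIs would be 1.83 and 3.73 CPM.

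Mesangial-like cells exceeded smooth muscle or renin-like cells by 2.80-fold (1.83 to 4.52) in the female-labelled library and 2.72-fold (2.05 to 3.66) in the male-labelled library. The step from smooth muscle or renin-like to arterial endothelial-like cells was 2.11-fold (1.13 to 3.93) in the female-labelled library, while its interval included 1 in the male-labelled library (1.18-fold, 0.809 to 1.73). The ratio of arterial over glomerular endothelial-like cells was 0.657 (0.397 to 1.05) in the female-labelled library and 25.2 (8.24 to 126) in the male-labelled library. The annotated span of Gja5 overlaps 4 genes on the other strand, of which Gpr89 had the most UMIs, and the labels and headers do not state whether counting used strand. Gpr89 stood at 39.5 and 45.3 CPM in podocyte-like cells, where Gja5 was near 0, and at 28.1 and 28.3 CPM in mesangial-like cells.

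All 6 mesangial-like clusters carried Gja5, between 193 and 341 CPM over both libraries. The Sfrp2-led cluster stood at 174 CPM (57 cells) in the female-labelled library and 371 CPM (58 cells) in the male-labelled library, and the Cxcl13- and Ptn-led one at 211 (76 cells) and 335 (21 cells) CPM. The Col12a1- and Mgp-led cluster stood at 229 (31 cells) and 299 (41 cells) CPM, and the Serpine2-led one at 249.6 (26 cells) and 336 (43 cells) CPM. Among these 4 large clusters the Sfrp2-led one was thus the lowest in the female-labelled library and the highest in the male-labelled library. An unnamed cycling cluster of 34 cells, in which mesangial and endothelial markers both occur, held Gja5 at 89.5 CPM, Gja4 at 29.2 CPM and Gjc1 at 198 CPM.

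In the smooth muscle or renin-like class Gja5 lay with renin. The sub-cluster led by Ren1, the gene of renin (40 cells, 99903 CPM of Ren1), held Gja5 at 155 CPM (16 cells) in the female-labelled library and 278 CPM (24 cells) in the male-labelled library. The sub-cluster led by Rgs5 and Myh11, genes of contractile smooth muscle, held 20.6 and 6.56 CPM, from 3 and 1 UMIs, and the Acta2- and Myh11-led one held no Gja5 UMI in its 4 and 12 cells. A division by Ren1 alone gave the same order, but it is no separate check, since Ren1 also led the sub-cluster. Cells with 10000 CPM or more of Ren1 (11 and 22 cells) held Gja5 at 203 (118 to 325) and 301 (226 to 394) CPM, and the cells below that level (26 and 35) held 23.4 (7.60 to 54.6) and 7.61 (0.922 to 27.5) CPM, with 3 and 2 cells of the class lying within a factor of 2 of the limit.

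Arterial endothelial-like Gja5 was similarly uneven. In the sub-cluster led by Eln and Stmn2, which also held the arterial genes Hey1 (118 CPM), Dll4 (209 CPM) and Bmx (114 CPM), Gja5 stood at 202 CPM (11 cells) in the female-labelled library and 392 CPM (22 cells) in the male-labelled library. The S100a4-, Cd93- and Tspan8-led sub-cluster of 69 cells had no Gja5 UMI in either library, and the S100a4-, Cd93- and Fbln2-led one of 28 cells had 2 UMIs, both in the male-labelled library. Hey1, Dll4 and Bmx were at 4.24, 8.48 and 29.7 CPM in the S100a4-, Cd93- and Tspan8-led sub-cluster and at 6.91, 20.7 and 6.91 CPM in the S100a4-, Cd93- and Fbln2-led one.

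Gja4 (Cx37), which together with Cx40 forms the classical gap junctions of arterial endothelium, was found in every vascular class and in mesangial-like cells. It stood at 299.9 CPM (260 to 344) and 239 CPM (201 to 282) in arterial endothelial-like cells of the female- and male-labelled libraries, at 229 (178 to 290.1) and 205 (165 to 252) CPM in smooth muscle or renin-like cells, and at 126 (108 to 146) and 111 (87.5 to 138) CPM in glomerular endothelial-like cells. Mesangial-like cells held 39.1 (30.9 to 48.8) and 45.5 (35.2 to 57.9) CPM. Podocyte-like cells held 0.214 and 0.0278 CPM, and parietal epithelial-like cells held 1 UMI in each library.

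The upper pair of classes was not separated. Arterial endothelial-like cells were 1.31-fold (0.992 to 1.75) and 1.16-fold (0.888 to 1.54) over smooth muscle or renin-like cells. These in turn were 1.82-fold (1.36 to 2.42) and 1.86-fold (1.36 to 2.54) over glomerular endothelial-like cells, which were 3.21-fold (2.45 to 4.25) and 2.43-fold (1.73 to 3.42) over mesangial-like cells. A Gja4 UMI was seen in 80.0% and 66.2% of arterial endothelial-like cells, 70.3% and 59.6% of smooth muscle or renin-like cells and 58.4% and 45.6% of glomerular endothelial-like cells, against 0.162% and 0.0312% of podocyte-like cells.

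The Eln- and Stmn2-led arterial sub-cluster that held Gja5 was also the highest for Gja4, at 849 CPM in the female-labelled library and 438 CPM in the male-labelled library. The other arterial sub-clusters lay between 163 and 186 CPM in both libraries. The 11 cells of the Eln- and Stmn2-led sub-cluster in the female-labelled library held 101 Gja4 UMIs, and 1 cell held 44 of them. Those 44 UMIs were 21.5% of the class's Gja4 in that library. Without the cell of highest Gja4 in each library, the class stood at 248 CPM in the female-labelled library and 239 CPM in the male-labelled library.

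Gja1 (Cx43), the most widely expressed connexin of the body, was the highest of the 6 classes in arterial endothelial-like cells. It stood at 93.6 CPM (72.1 to 119.6) and 68.3 CPM (48.8 to 93.0) in arterial endothelial-like cells of the female- and male-labelled libraries, from 64 and 40 UMIs, with a UMI in 44.6% and 35.4% of cells, against 0.216% and 0.156% of podocyte-like cells. Glomerular endothelial-like cells held 5.05 (2.03 to 10.4) and 12.6 (5.76 to 23.9) CPM, so that arterial cells were 18.5-fold (8.49 to 47.9) and 5.42-fold (2.59 to 12.7) higher. Parietal epithelial-like cells held 3.66 and 7.46 CPM from 6 UMIs in each library, and mesangial-like cells held 2 UMIs and 0 UMIs, with 3 UMIs being worth 1.504 and 2.07 CPM.

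Across the arterial sub-clusters Gja1 did not follow Gja5. It was 102 and 93.8 CPM in the S100a4-, Cd93- and Tspan8-led sub-cluster, which had no Gja5, 97.2 and 48.2 CPM in the S100a4-, Cd93- and Fbln2-led one, and 58.8 and 45.7 CPM in the Eln- and Stmn2-led one that held Gja5. The Poisson intervals of Gja1 in the 3 sub-clusters overlap in each library. Outside the class, the glomerular endothelial-like sub-cluster led by Calcrl and Adgrl4 (26 cells) had the highest Gja1 of its class, 25.7 CPM (9.41 to 55.8) from 6 UMIs. This sub-cluster also had the highest Sox17 (410 CPM) and Fbln5 (222 CPM) of its class, both arterial markers, and the lowest Kdr (534 CPM). The arterial markers Hey1 (4.28 CPM), Dll4 (17.1 CPM) and Efnb2 (389 CPM) were not highest there.

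Gjc1 (Cx45), a connexin of vascular smooth muscle, reached 20 CPM or more in each of the 6 classes but podocytes. It was highest in smooth muscle or renin-like cells, at 279 CPM (222 to 346) in the female-labelled library and 253 CPM (208 to 305) in the male-labelled library, with a UMI in 81.1% and 73.7% of cells, against 0.216% and 0.125% of podocyte-like cells. Glomerular endothelial-like cells held 143 (124 to 164) and 99.3 (77.6 to 125) CPM, mesangial-like cells 93.2 (80.3 to 108) and 108 (91.3 to 126) CPM, and arterial endothelial-like cells 46.8 (32.02 to 66.1) and 49.5 (33.2 to 71.1) CPM. Parietal epithelial-like cells held 23.2 (16.4 to 31.8) and 26.1 (16.2 to 39.9) CPM, and podocyte-like cells 0.171 (0.0738 to 0.337) and 0.139 (0.0451 to 0.324) CPM.

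Smooth muscle or renin-like cells exceeded glomerular endothelial-like cells 1.95-fold (1.49 to 2.54) and 2.55-fold (1.87 to 3.48). Glomerular endothelial-like and mesangial-like cells differed by 1.53-fold (1.25 to 1.88) in the female-labelled library, while in the male-labelled library the ratio was 0.924 (0.688 to 1.23). The ratio of parietal epithelial-like over podocyte-like cells was 136 (62.3 to 337) and 188 (68.9 to 637). Gja1 too was higher in parietal epithelial-like cells (3.66 and 7.46 CPM) than in podocyte-like cells (0.192 and 0.139 CPM), with intervals that did not overlap in either library. Summed smooth muscle or renin markers (10 genes) stood at 2414 and 3628 CPM in parietal epithelial-like cells, against 125 and 93.9 CPM in podocyte-like cells. Of these genes 4 (Myh11, Cnn1, Rgs5 and Akr1b7) stood at 0 in parietal epithelial-like cells of the male-labelled library. None did in those of the female-labelled library.

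Gjc1 had its own distribution within the classes. The Rgs5- and Myh11-led smooth muscle sub-cluster stood at 322 and 407 CPM, and the Ren1-led one, where Gja5 was high, at 220.1 and 129 CPM. Gjc1 was at 35.8 and 33.5 CPM in the Akap12- and Msmp-led parietal sub-cluster, and over both libraries at 34.9 CPM (26.5 to 45.1) there against 1 UMI, or 1.28 CPM, in the Gpx3- and Krt8-led parietal sub-cluster of 29 cells. An unnamed cluster of 59 cells, led by Pcp4 and Tagln, held 53.6 CPM (35.6 to 77.4). Of the parietal markers it held Akap12 at 1862 CPM and Cldn1 at 310 CPM, but Krt8 and Krt18 stood at 0. Tagln and Acta2, both on the smooth muscle list, stood at 5879 and 1400 CPM in it. They stood at 3239 and 571 CPM in the Akap12- and Msmp-led sub-cluster, and at 134 and 28.1 CPM in the Gpx3- and Krt8-led one. Myh11, also on that list, went the other way. It stood at 24.9 CPM in the unnamed cluster, 3.01 CPM in the Akap12- and Msmp-led one and 0 CPM in the Gpx3- and Krt8-led one. In the smooth muscle or renin-like sub-clusters Myh11 stood at 2320 to 2754 CPM. The part of smooth muscle RNA in these Gjc1 counts was not tested.

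Of the 8841 genes at 20 CPM or more in at least 1 class of both libraries, 15.2% had the same leading class in both libraries at 2-fold or more over the next class in each. Among the 5 members, Gja3, Gja5 and Gja1 did so. At 5-fold or more, Gja3 and Gja1 did so, beside 6.11% of all genes. Since the genes were picked for their patterns, nothing is read from these shares.

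**Figure D3:**
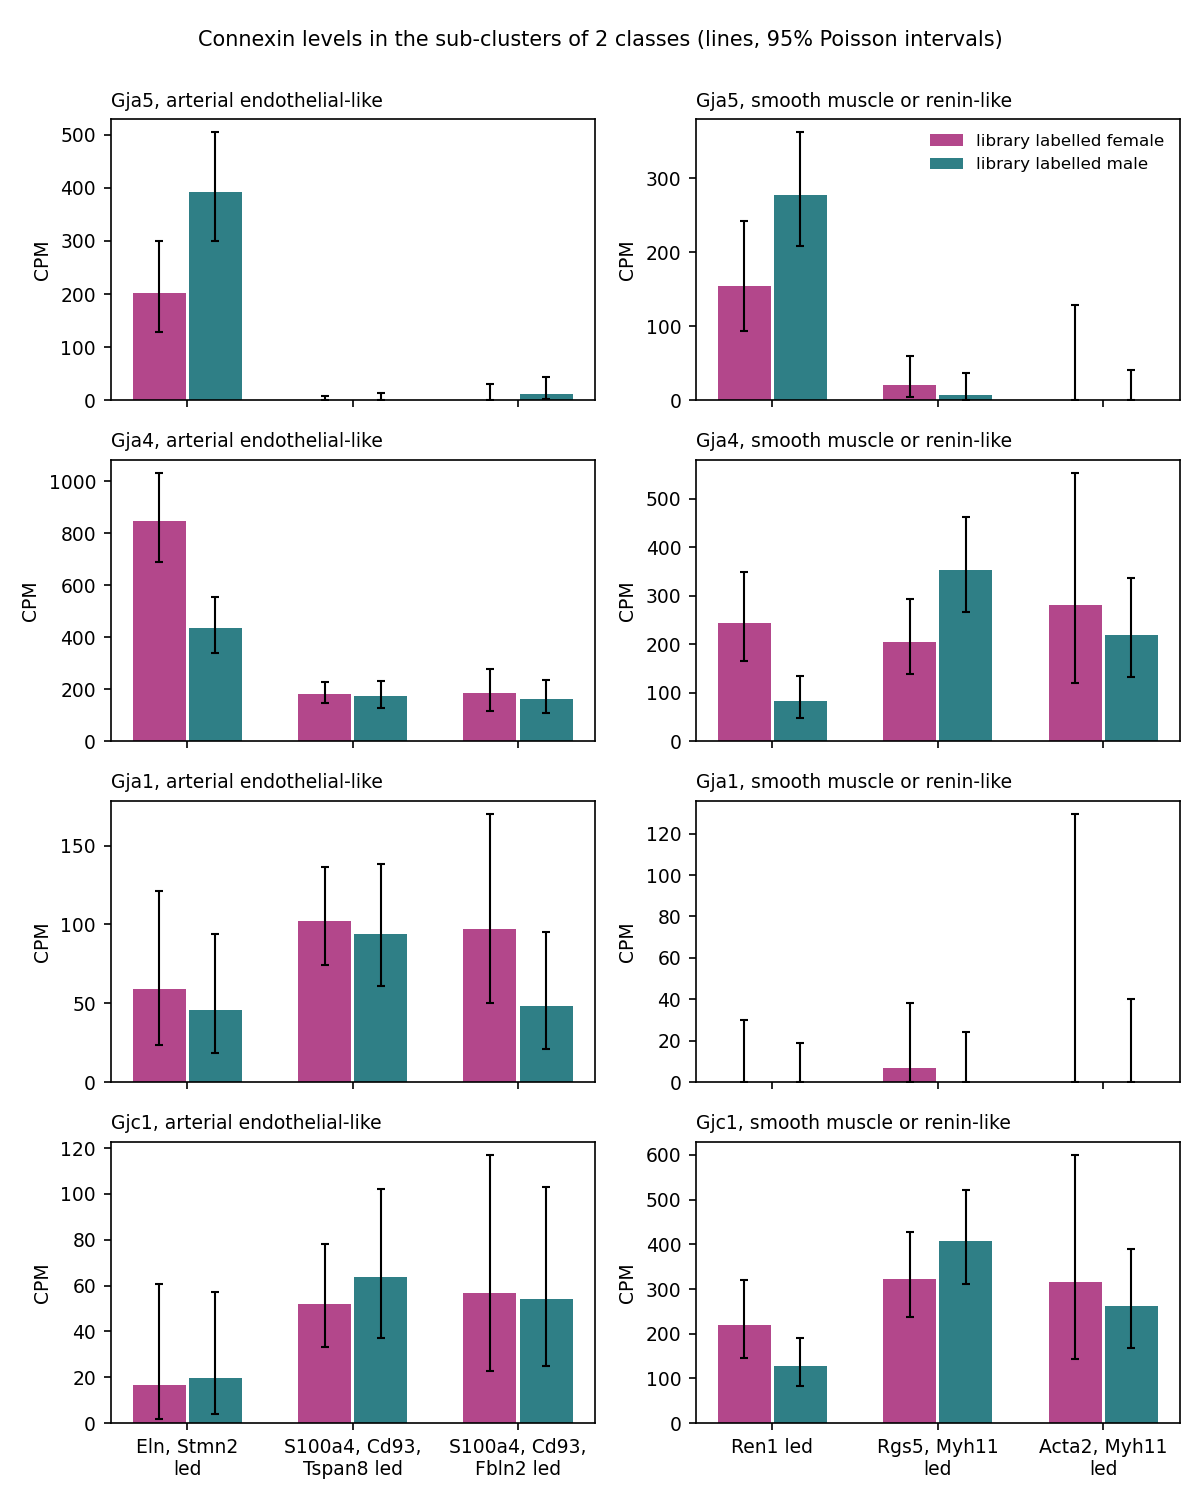
Levels (CPM, bars starting at 0) of Gja5, Gja4, Gja1 and Gjc1 in the 3 sub-clusters of arterial endothelial-like cells (left column) and the 3 sub-clusters of smooth muscle or renin-like cells (right column), for the female-labelled library (left bar) and the male-labelled library (right bar), with 95% Poisson intervals. Gja5 stands at 155 CPM or more in the Eln- and Stmn2-led and the Ren1-led sub-clusters and at 20.6 CPM or less in the other 4.

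The libraries were compared class by class, with no replicate. Where a member reached 20 CPM in at least 1 library, a difference of 1.5-fold or more was seen for Gja5 alone, in 4 classes. It was 1 of 3 members measured in mesangial-like cells, where 9.07% of all genes differed that much, 1 of 4 in arterial endothelial-like cells (21.2%), 1 of 3 in smooth muscle or renin-like cells (33%) and 1 of 3 in glomerular endothelial-like cells (18.3%). No member did so in podocyte-like cells (1.49% of all genes) or parietal epithelial-like cells (13.6%).

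The ratio of Gja5 in the female-labelled library over the male-labelled library was 0.609 (0.533 to 0.696) in mesangial-like cells, 0.332 (0.198 to 0.539) in arterial endothelial-like cells and 0.590 (0.343 to 0.984) in smooth muscle or renin-like cells. In mesangial-like cells the makeup of the class differed, since the Cxcl13- and Ptn-led cluster held 76 of 209 cells in the female-labelled library and 21 of 167 in the male-labelled library. Within that cluster the ratio was 0.631 (0.460 to 0.875), within the Sfrp2-led cluster 0.469 (0.363 to 0.602), within the Serpine2-led cluster 0.743 (0.559 to 0.983) and within the Col12a1- and Mgp-led cluster 0.766 (0.538 to 1.08). The Eln- and Stmn2-led arterial sub-cluster had a ratio of 0.514 (0.306 to 0.839) and the Ren1-led sub-cluster one of 0.558 (0.312 to 0.957). The Eln- and Stmn2-led sub-cluster made up 11 of 65 arterial cells in the female-labelled library and 22 of 65 in the male-labelled library.

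In glomerular endothelial-like cells Gja5 ran the other way, at 53.4 CPM in the female-labelled library and 4.20 CPM in the male-labelled library, a ratio of 12.7 (4.19 to 63.1). The 74 UMIs of the female-labelled library lay in 7 of 113 cells, with 33 of them in 1 cell. The 3 UMIs of the male-labelled library lay in 1 of 90 cells. Summed mesangial markers (10 genes) stood at 2106 CPM in these cells of the female-labelled library and 71.3 CPM in those of the male-labelled library. The 5 cells that held 2 or more UMIs of Pdgfrb, a mesangial and mural receptor, carried 69 of the 74 Gja5 UMIs. Without them Gja5 stood at 4.69 and 4.20 CPM, a ratio of 1.12 (0.217 to 7.19), and Gja4 and Gjc1 of the class stood at 128 and 151 CPM in the female-labelled library, against 126 and 143 CPM with those cells.

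Gjc1 in glomerular endothelial-like cells was 1.44-fold (1.09 to 1.91) higher in the female-labelled library, and 1.52-fold (1.14 to 2.04) without the Pdgfrb-bearing cells. The Dlk1-led sub-cluster, 30 cells in the female-labelled library and 10 in the male-labelled library, stood at 216 and 50.01 CPM, while the Kdr- and Emcn-led, the Fabp4- and Emcn-led and the Kdr- and Meg3-led sub-clusters had ratios of 0.908, 1.08 and 0.791, each with an interval that included 1. The Calcrl- and Adgrl4-led sub-cluster had a ratio of 1.37 (0.540 to 3.62) and the Kdr- and Cd300lg-led one of 3.78 (0.918 to 33.4). Gja4 in arterial endothelial-like cells had a ratio of 1.25 (1.01 to 1.57), and of 1.03 (0.817 to 1.31) without the cell of highest Gja4 in each library. Gja4 differed in opposite directions inside the smooth muscle or renin-like class, with ratios of 2.97 (1.57 to 5.84) in the Ren1-led and 0.580 (0.359 to 0.923) in the Rgs5- and Myh11-led sub-cluster. Gja1 in arterial endothelial-like cells (1.37, 0.909 to 2.09) and Gjc1 in smooth muscle or renin-like cells (1.10, 0.820 to 1.48) had intervals that included 1.

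**Figure D4:**
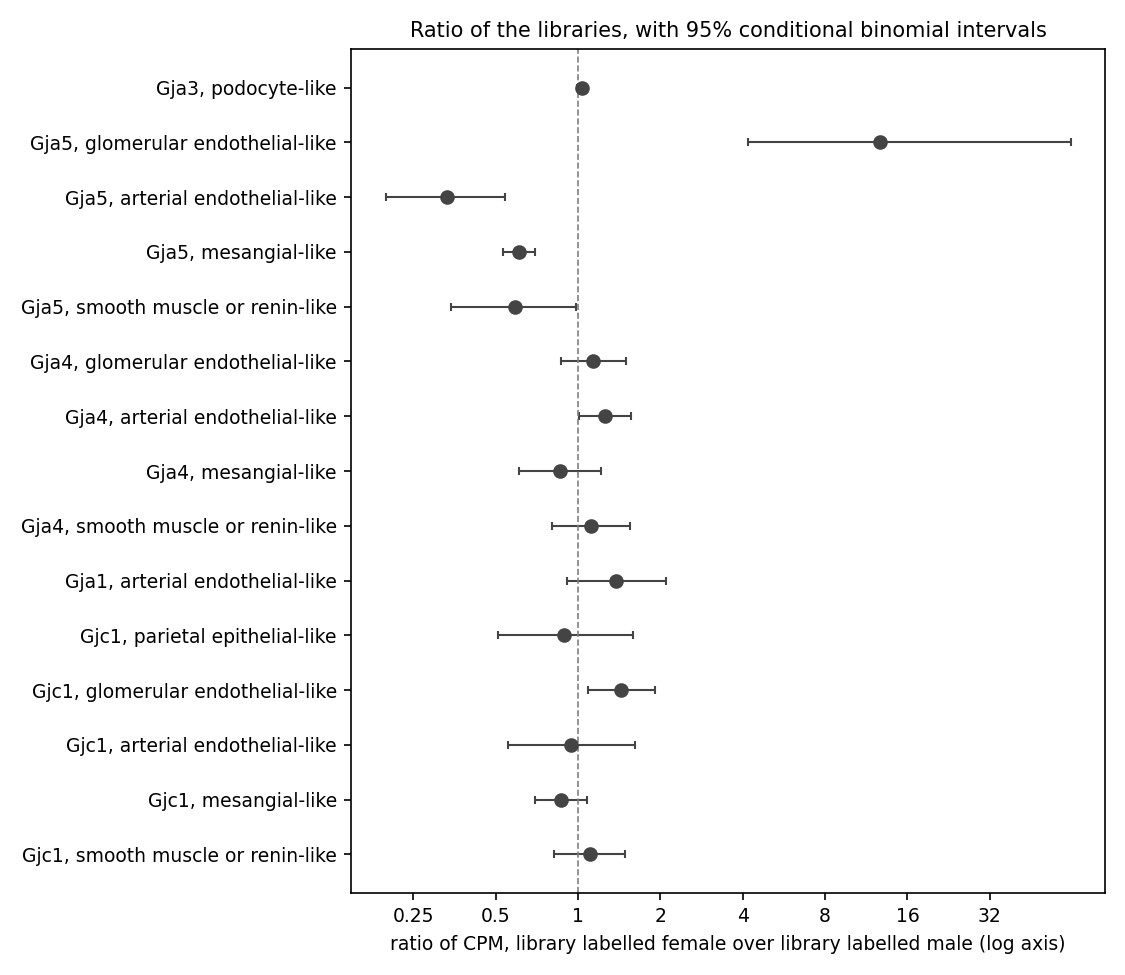
Ratio of CPM in the female-labelled library over the male-labelled library (log axis, points) with 95% conditional binomial intervals (lines), for each member and class with 20 or more UMIs in both libraries together. Gja3 in podocyte-like cells lies at 1.03, and Gja5 lies between 0.332 and 0.609 in 3 classes and at 12.7 in glomerular endothelial-like cells. In that class 69 of the 74 Gja5 UMIs of the female-labelled library lay among 5 Pdgfrb-bearing cells.

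No pair of members was seen together in more than 5 podocyte-like or 2 parietal epithelial-like cells of a library. In mesangial-like cells Gja5 and Gjc1 were seen together in 88 of 209 and 73 of 167 cells, where independence would give 82.4 and 71.9. In the Eln- and Stmn2-led sub-cluster all 7 of the cells with Gja5 in the female-labelled library and 12 of the 17 in the male-labelled library also had Gja4, where independence would give 5.73 and 12.4. Gja5 and Gja1 were seen together in 0 and 3 arterial endothelial-like cells, where independence over the whole class would give 3.12 and 6.37. Within the Eln- and Stmn2-led sub-cluster, which held most of the Gja5, the counts were 0 and 3, against 0.636 and 3.09 by independence.

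None of the other 15 connexin genes, and none of the 3 pannexin genes, whose products form single-membrane channels, reached 20 CPM in any of the 6 classes of both libraries. Panx1 had 153 and 138 UMIs over all kept cells.

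From a list of 20 partners and regulators of gap junctions, 18 genes reached 20 CPM and 3 of them (Cdh2, Dbn1 and Prkca) led by 2-fold or more in both libraries, beside 15.2% of all 8841 genes, a share near that of the list. The median difference between the leading class and the median of the other classes was 0.91 on the log2(CPM + 10) scale for these 18 genes, 0.68 for all 8841 genes and 2.96 for the 5 members. The members were picked for their levels by class, so nothing is read from their value. The list had 6 genes with a difference over 2 on this scale. Cdh5, the endothelial cadherin, stood at 856 and 876 CPM in glomerular endothelial-like cells and 639 and 715 CPM in arterial endothelial-like cells. Ezr, the membrane-cytoskeleton linker ezrin, stood at 664 and 712 CPM in podocyte-like cells and 494 and 476 CPM in parietal epithelial-like cells. Prkca, a protein kinase C that phosphorylates connexins, stood at 459 and 674 CPM in mesangial-like cells, and Dbn1, the actin-binding protein drebrin, at 140.3 and 132 CPM there. Cdh2, or N-cadherin, stood at 84.7 and 122 CPM in parietal epithelial-like cells, and Cav1, of caveolae, at 307 and 331 CPM in arterial endothelial-like cells.

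The genes whose levels ran most alike were found by Pearson correlation of log2(CPM + 10) over the 12 points of class and library, among 5339 genes at 50 CPM or more in at least 1 class of both libraries. The points share libraries and cell counts, so the values are a description. Nearest to Gja3 were Metrnl, B3galt2, Gabra4 and Top1mt, with r between 0.980 and 0.984, and podocyte-like levels of 473 and 475 CPM for Metrnl and of 71.8 and 73.4 CPM for Gabra4, a GABA receptor subunit. Nearest to Gja5 were Serpine2, Plcb3, Camk2g and Mecom (r 0.931 to 0.963). Serpine2, a protease inhibitor and one of the mesangial markers, stood at 2706 and 2536 CPM in mesangial-like cells. Nearest to Gja4 were Entpd1, Lrrc32, Arpc1b and Atp2a3 (r 0.949 to 0.980), and Entpd1, which encodes the ectonucleotidase CD39, stood at 143 and 126 CPM in arterial endothelial-like cells. Nearest to Gja1 were Dstyk, Fam181b, Fbln2 and St8sia6 (r 0.961 to 0.973), of which Fbln2, the matrix protein fibulin-2 and one of the arterial markers, stood at 812 and 629.9 CPM in arterial endothelial-like cells. Among the nearest to Gjc1 were Adcy6, Gng11 and Mtss1l (r 0.946 to 0.972), with Adcy6, an adenylyl cyclase, at 145 and 182 CPM in smooth muscle or renin-like cells.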

How the data were processed

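Single-cell 3′ libraries of 2 mice, 1 labelled female and 1 labelled male, were analysed from the count matrices that the authors deposited, which hold whole UMI counts per gene and barcode. The submitters' processing notes name Cell Ranger 6.1.2, STAR 2.7.5a and mm10, without their roles. The members and all gene lists were chosen with earlier results of these data known.

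Cells with at most 20% mitochondrial UMIs and at least 500 genes were kept, 4909 in the female-labelled and 4442 in the male-labelled library. Over the mitochondrial limit were 283 and 504 barcodes, and 112 and 145 had too few genes. Scrublet marked 0.0611% and 0.0225% of cells and was not used. Both libraries were clustered together on 2000 variable genes, leaving out connexin, pannexin, mitochondrial, sex-linked and reporter genes, with 30 principal components, a graph of 20 shared nearest neighbours and Leiden clustering at resolution 1.0. This gave 17 clusters. Those of at least 60 cells with podocyte markers below 50% of the highest sum were split again with 15 components and 15 neighbours, giving 47 clusters, a step chosen after seeing the data. A class was described where both libraries held 30 or more of its cells.

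Levels are CPM of the summed counts of a class, with exact Poisson intervals for levels, Clopper-Pearson intervals for shares of cells and exact conditional binomial intervals for ratios, all at 95%. A count of 0 allows up to 3 counts. No cell was shallower than the 3000 UMIs used for thinning. Differences between classes used log2(CPM + 10). With 1 library per group no test was made. Named genes were the members, other connexins or pannexins at 20 CPM or more in a class of both libraries, the 6 partners with the largest difference between classes, the 4 genes most correlated with each member among those at 50 CPM or more, and class markers. Some items under this rule are not reported here. The interval and ratio code was checked on simulated counts. Tools were python 3.11.15, numpy 2.4.6, scipy 1.17.1, pandas 2.3.3, scanpy 1.11.5, scikit-learn 1.9.0, python-igraph 0.11.9 and leidenalg 0.10.2. Alternatives covered the mitochondrial limit, clustering resolution, doublet scores, prior, thinning, averaging over cells and clustering with connexin genes.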

Additional observations from a re-analysis of the deposited data

How the results depend on the processing

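No paired analysis was possible because each label has 1 library. Of 165 alternative values, 147 lay within the counting interval of the reported one. The next class was the one by the mean of both libraries, for Gja3 the glomerular endothelial-like. The difference between the leading class and the next, in log2(CPM + 10), was 3.31 for Gja3 in the female-labelled library. It was 3.79 with a mitochondrial limit of 10%, 3.77 at resolution 0.5, 3.75 without the 5% highest doublet scores, 4.77 with a prior of 1 CPM and 3.78 with cells thinned. In the male-labelled library it was 2.83, and 3.81, 3.73, 3.34, 3.70 and 3.79 under the same 5 settings in that order, 3.42 with the mean of per-cell CPM and 3.71 without the cell holding the most UMIs of the gene in each class, a setting chosen after seeing the data. For Gja1 in the female-labelled library it was 2.78, and 2.08 at resolution 2.0, 3.97 with the prior of 1 CPM and 3.49 with cells thinned. Podocytes led Gja3 and arterial endothelial-like cells led Gja1 under all of these.

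The log2 ratio of the libraries for Gja3 was 0.04, and -0.019 with the mitochondrial limit of 10% and -0.013 with cells thinned. For Gja4 in arterial endothelial-like cells it was 0.32, and reversed to -0.027 with cells thinned. Clustering with connexin genes allowed gave no value outside the reported interval. Leaving the first clusters unsplit, or leaving out endothelial-like cells with 2 or more Pdgfrb UMIs, both chosen after seeing the data, gave none either. The cause of these shifts was not tested. Leaving out a replicate was not possible with 1 library per label. Depth limits the smaller classes, in which 3 UMIs amount to 1.504 to 10.1 CPM.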
